A study of Mus musculus with 6 samples.

Results

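The EGF receptor family and its ligands were followed in EMT6, a mouse mammary carcinoma line, after long exposure to an antibody against PD-L1 in culture. The members were 3 receptors (Egfr, Erbb2 and Erbb3) and 5 ligands (Areg, Ereg, Hbegf, Tgfa and Epgn), taken by gene name, which gave 8 of the 53465 genes in the table. Polyadenylated RNA was sequenced from 3 samples grown with isotype control (the P VITRO group) and from 3 samples grown with anti-PD-L1, clone 80 in the methods of the study (the PTR VITRO group). Both antibodies were given at 0.5 μg/ml for more than 4 weeks in RPMI with serum, so all 6 samples carried an antibody and none was untreated. The labels name no edited gene or transgene in either group, and the tumour cells were grown without a host. The labels do not say that the replicates were separate cultures, and the study treats replicates as technical where it states nothing else. The p-values therefore measure only the spread between these samples.

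EGF family ligands are made as membrane-anchored precursors that metalloproteases such as ADAM17 shed from the cell surface. A shed ligand binds EGFR, which pairs with itself, ERBB2 or ERBB3 and activates RAS-ERK, PI3K-AKT and STAT signalling. ERBB2 has no known ligand of its own and ERBB3 has a weak kinase that depends on its partner. Amphiregulin (Areg) is the ligand best known for duct growth in the mammary gland, and overexpressed ERBB2 defines a class of breast carcinomas. Several ligand genes and many feedback inhibitors are themselves induced by ERK.

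The ligands bind through an EGF-like domain held together by 6 cysteines. Its coding sequence is shown for Areg, the ligand with the most RNA here, beside Tgfa, which had little, and Ereg and Epgn, which had almost none. The sequences come from GENCODE M21 transcripts (GRCm38), read 5′ to 3′ on the plus strand, with the cysteine codons in capitals.
Areg: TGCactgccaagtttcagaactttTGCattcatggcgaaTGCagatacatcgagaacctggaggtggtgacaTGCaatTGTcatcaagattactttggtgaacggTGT
Tgfa: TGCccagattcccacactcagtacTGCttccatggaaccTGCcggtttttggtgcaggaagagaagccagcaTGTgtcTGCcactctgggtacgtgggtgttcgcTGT
Ereg: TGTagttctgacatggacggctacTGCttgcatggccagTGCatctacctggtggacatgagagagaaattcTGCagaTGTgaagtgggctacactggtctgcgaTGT
Epgn: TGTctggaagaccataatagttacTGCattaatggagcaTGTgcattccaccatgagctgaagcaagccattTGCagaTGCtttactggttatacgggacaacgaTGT
In all 4 genes the domain took 108 coding bases, the 6 cysteines had the same spacing (7, 4, 10, 1 and 8 residues between them), and the coding bases were split over exons 3 and 4. The genomic spans, which include the intron between those exons, were chr5:91143614-91144364 for Areg, chr6:86263200-86269960 for Tgfa, chr5:91088496-91089111 for Ereg and chr5:91031152-91032237 for Epgn. Compared base by base without gaps, Areg and Ereg shared 53.7% of the 108 bases, the highest value of the 6 pairs, and Ereg and Tgfa shared 45.4%, the lowest.

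Across the 6 samples Areg and Hbegf supplied nearly all of the ligand RNA, all 3 receptors were present at low to moderate levels, and Ereg and Epgn were near the limit of detection. To compare genes, counts were divided by exon length in kilobases and scaled to 1000000 over all genes of a sample. On this per-length scale Areg had a mean level of 2098 over the 6 samples (range 2030 to 2172), which ranked 52 among the 14217 genes that passed the filter on low counts. Hbegf, which encodes heparin-binding EGF, followed with a level of 343 (range 294 to 382), rank 458. Tgfa, which encodes TGFα, had a level of 11.5 (range 10.3 to 12.1). The receptors came next, with levels of 10.8 for Erbb2 (range 10.2 to 11.4), 9.40 for Egfr (range 8.69 to 10.1) and 2.44 for Erbb3 (range 2.12 to 2.92). The levels of Epgn (0.102) and Ereg (0.0204) rested on at most 4 and 2 counts in a sample. Neighbours in this order had ranges that did not overlap, except for Tgfa and Erbb2 and for Epgn and Ereg, whose order is not resolved. The order of the 8 genes was the same when the longest annotated transcript was used as the length, with Areg at 1664 and Hbegf at 455.

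**Figure D1:**
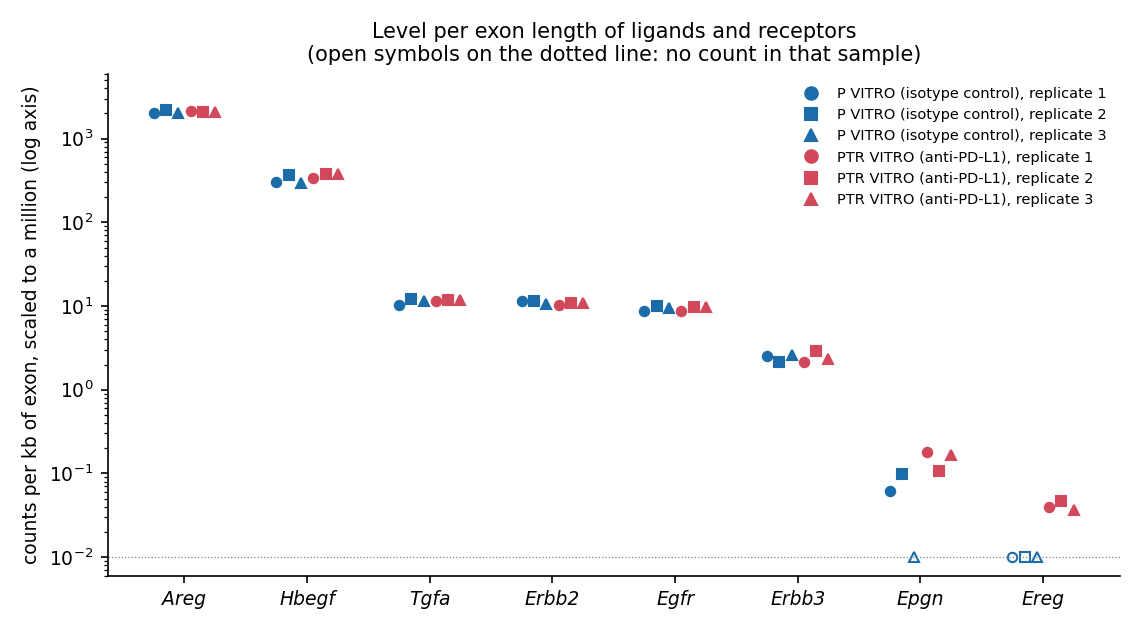
Level per exon length (counts per kilobase of exon scaled to 1000000 over all genes, log axis) of the 8 genes in each of the 6 samples, with P VITRO in blue and PTR VITRO in red; open symbols mark samples with no count. Areg lies near 2098 and Hbegf near 343 in both groups, while Tgfa and the 3 receptors lie between 2.12 and 12.1.

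Areg held 85.6% of the summed per-length level of the 5 ligands on average, from 84.3% to 87.0% across the samples. Hbegf held 13.3% ± 0.91 (SD, n = 3) of it in P VITRO and 14.7% ± 0.83 (SD, n = 3) in PTR VITRO, and Tgfa held 0.468% over all samples. With the longest annotated transcript as the length, the share of Hbegf over all samples moved from 14.0% to 21.3% and that of Areg to 78.1%. Thus the 2 leading ligands made up nearly the whole pool in every sample. Among the receptors Erbb2 held 47.9% of the summed level, Egfr 41.4% and Erbb3 10.7%. The summed ligand level was 105 ± 2.36 times the summed receptor level in P VITRO and 111 ± 6.18 times in PTR VITRO (SD, n = 3 each), and the ranges of the groups overlapped (104 to 108 against 106 to 118).

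The first question was whether long exposure to anti-PD-L1 went with a change in any of these RNAs. None of the 6 members that passed the filter (Egfr, Erbb2, Erbb3, Areg, Hbegf and Tgfa) was called at an adjusted p below 0.05 by the quasi-likelihood F test of edgeR, over a background of 35 of 14217 genes or 0.246%. The background was 0.0985% for genes higher in PTR VITRO and 0.148% for genes lower. DESeq2 and limma-voom called none of the 6 either, over backgrounds of 0.946% and 0.218%. At an unadjusted edgeR p below 0.05, 1 of the 6 (Hbegf) was past the threshold, where 11.4% of all genes were. In 1 of the 6 (Erbb2) the samples of the groups did not overlap, where 17.6% of all genes did so. The median log2 fold change of the 6 was 0.003, beside -0.004 for all genes tested. Ereg and Epgn were removed by the filter.

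**Figure D2:**
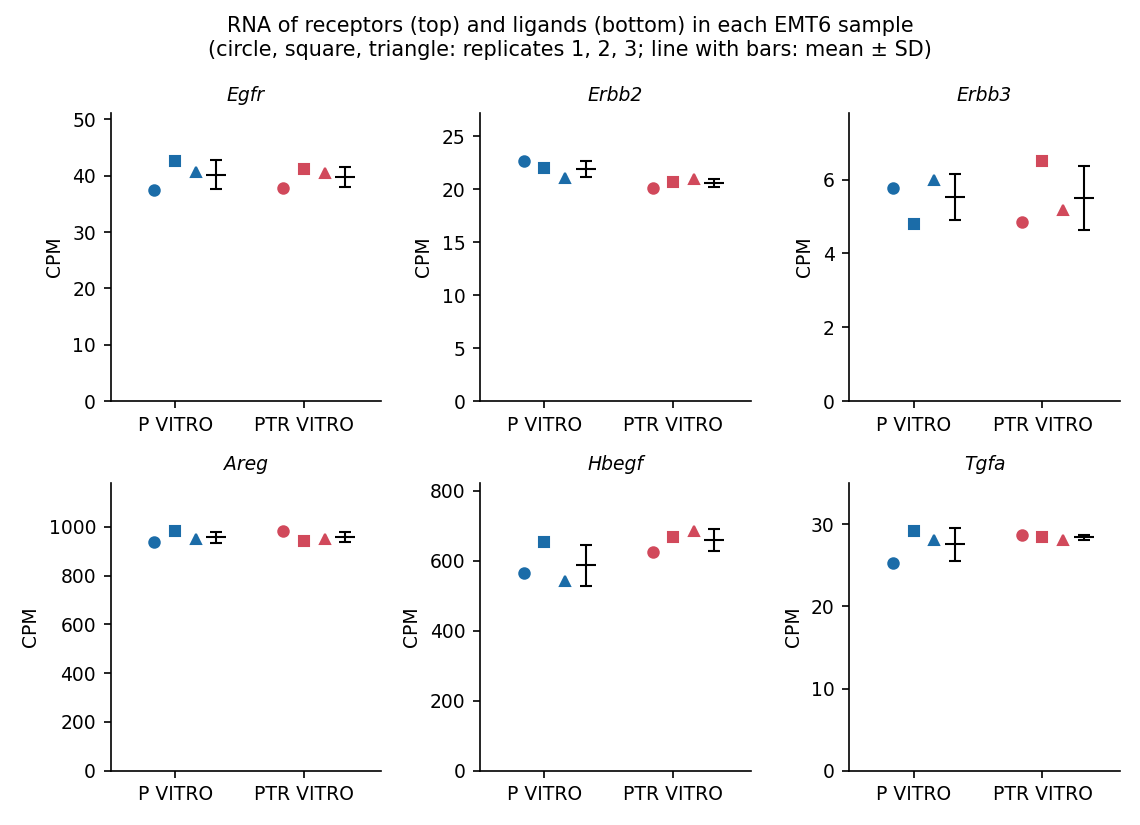
CPM (counts scaled to 1000000 after upper-quartile scaling, axes from 0) of the 3 receptors and the 3 tested ligands in each sample, with replicates 1, 2 and 3 as circle, square and triangle and the mean ± SD of each group in black. Only for Erbb2 do the groups not overlap, with 21.1 to 22.6 CPM in P VITRO and 20.1 to 20.9 CPM in PTR VITRO.

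Egfr (chr11:16752203-16918158, plus strand, GRCm38), the receptor that binds all 5 ligands, was at 37.5, 42.6 and 40.6 CPM in P VITRO and at 37.8, 41.2 and 40.4 CPM in PTR VITRO. The PTR VITRO samples lay within the range of the P VITRO samples. The means were 40.2 ± 2.57 and 39.8 ± 1.80 CPM (SD, n = 3 each), a log2 fold change of -0.02 ± 0.058 (SE, adjusted p = 0.937 in edgeR). The 95% interval ran from 0.903-fold to 1.08-fold. The antisense transcript Egfros lies in an intron of Egfr and shares no exon base with it.

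Erbb2 (chr11:98412470-98437716, plus strand), the receptor without a ligand, was at 22.65, 22.03 and 21.09 CPM in P VITRO and at 20.1, 20.7 and 20.9 CPM in PTR VITRO. Every PTR VITRO sample was below every P VITRO sample, though the gap between the nearest 2 was narrow. The log2 fold change was -0.09 ± 0.058 (SE, adjusted p = 0.589 in edgeR), with a 95% interval of 0.859-fold to 1.02-fold. Erbb2 shares 9 exon bases with Mien1 on the other strand.

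Erbb3 (chr10:128567523-128589652, minus strand), the kinase-poor partner receptor, had the fewest counts of the tested members, 92 to 184 in a sample. It was at 5.78, 4.81 and 5.996 CPM in P VITRO and at 4.84, 6.49 and 5.16 CPM in PTR VITRO. The groups overlapped over almost their whole range. The log2 fold change was 0.00 ± 0.15 (SE, adjusted p = 0.999 in edgeR), and the 95% interval of 0.802-fold to 1.25-fold was the widest among the tested members.

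Areg (chr5:91139599-91148432, plus strand), which encodes amphiregulin, was at 938, 982 and 950 CPM in P VITRO and at 984, 944 and 951 CPM in PTR VITRO. The highest and the lowest of the 6 values differed by 1.05-fold, the narrowest spread of any tested member. The means were 957 ± 22.8 and 960 ± 21.5 CPM (SD, n = 3 each). Between the groups the log2 fold change was 0.00 ± 0.032 (SE, adjusted p = 0.975 in edgeR), with a 95% interval of 0.955-fold to 1.05-fold. With 16951 to 31908 counts in a sample, Areg was the member measured with the least counting error.

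Areg lies in a row of EGF family ligand genes on chromosome 5. Epgn (chr5:91027464-91035215) starts 112 kb before Areg and Ereg (chr5:91074622-91093646) starts 65 kb before it, all on the plus strand. Btc (chr5:91357261-91402994), which encodes betacellulin, lies 218 kb after the start of Areg on the minus strand. The per-length levels along the row were 0.102 for Epgn, 0.0204 for Ereg, 2098 for Areg and 1.72 for Btc, so RNA was abundant from 1 of the 4 genes. The antisense gene Gm19610, which shares 141 exon bases with Ereg, had no counts in any sample.

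**Figure D3:**
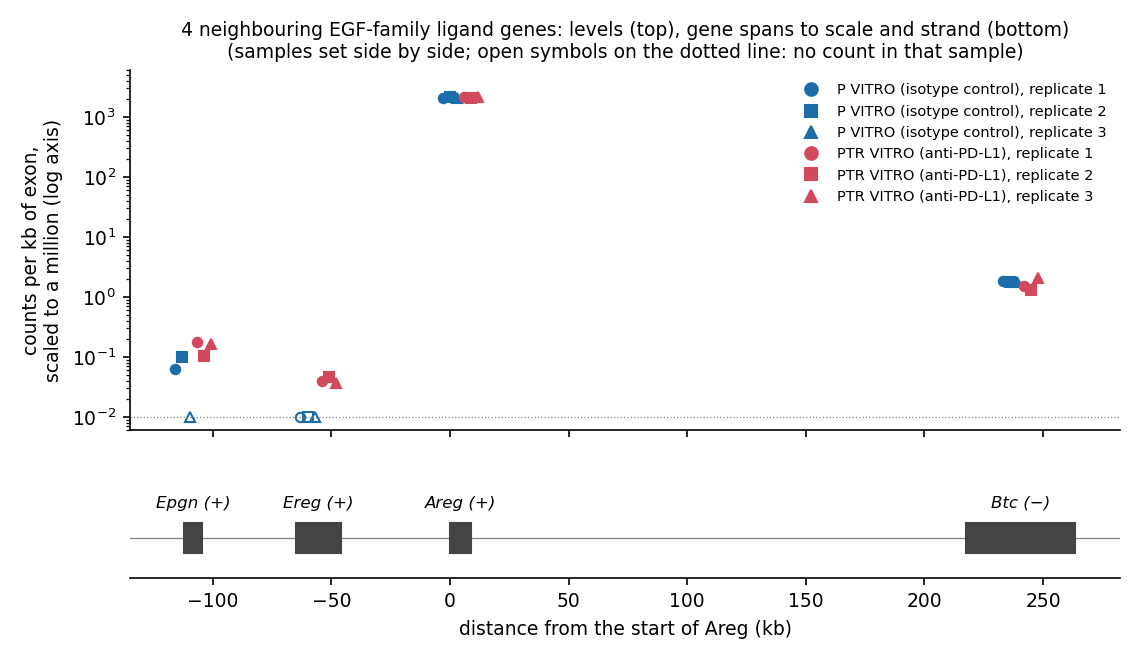
Per-length level of the 4 neighbouring ligand genes in each sample (top, log axis, open symbols for samples with no count) above their spans to scale, as distance in kb from the start of Areg (bottom). Areg, with a level near 2098, stands between Ereg and Epgn, whose levels are at most 0.0463 and 0.180 in a sample, and Btc with a mean level of 1.72.

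The 250 bases before the annotated start of Areg are shown because Areg is the abundant gene of that row. They come from the RefSeq promoter table (GRCm38.p6, chr5:91139349-91139598, plus strand), with matches to the cAMP response element TGACGTCA and the TATA box TATAAA in capitals.
Areg promoter: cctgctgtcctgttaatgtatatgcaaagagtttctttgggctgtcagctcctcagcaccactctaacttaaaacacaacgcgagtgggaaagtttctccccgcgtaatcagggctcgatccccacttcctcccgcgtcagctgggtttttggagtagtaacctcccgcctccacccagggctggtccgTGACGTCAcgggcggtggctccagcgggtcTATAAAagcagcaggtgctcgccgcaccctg
The first match starts 61 bases and the second 31 bases before the start. Both strands were searched for 4 motifs in windows of 300 bases (250 before and 50 after the start) of 32851 promoters. TGACGTCA was in 1.79% of these windows, TATAAA in 13.6%, GGGCGG (GC box) in 35.7% and TGACTCA (AP-1) in 5.2%. The Areg window held the first 3 of these, while the Epgn window held TATAAA, 86 bases before its start, and none of the others. A match describes letters only, and no binding was measured. The table held 5 of the 8 members and did not list Ereg, Hbegf and Erbb3.

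Tgfa (chr6:86195223-86275719, plus strand) was at 25.4, 29.2 and 28.1 CPM in P VITRO and at 28.7, 28.5 and 28.1 CPM in PTR VITRO. P VITRO replicate 1 was low and P VITRO replicate 2 was high, with the 3 PTR VITRO samples between them. Its log2 fold change was 0.04 ± 0.061 (SE, adjusted p = 0.835 in edgeR), with a 95% interval of 0.940-fold to 1.13-fold. A transcript on the other strand, Gm43917, shares 118 exon bases with Tgfa and had at most 4 counts in a sample.

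Ereg, which encodes epiregulin, and Epgn, which encodes epigen, stayed at or near the floor of 3 counts that a count of 0 allows, which is 0.0925 to 0.168 CPM depending on depth. Ereg had 0 counts in each P VITRO sample and 2, 2 and 1 counts in the PTR VITRO samples, all under the floor. Epgn had 1, 2 and 0 counts in P VITRO and 4, 2 and 2 counts in PTR VITRO, so 1 sample was above the floor. Neither gene was tested, and no difference was detectable at this depth.

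Hbegf (chr18:36504927-36515805, minus strand), whose product also serves as a membrane-bound growth factor, showed the largest log2 fold change among the 6 tested members. It was at 564, 654 and 542 CPM in P VITRO and at 626, 667 and 686 CPM in PTR VITRO. P VITRO replicate 2 lay above PTR VITRO replicate 1, while the other 2 P VITRO samples lay below all PTR VITRO samples. The means were 587 ± 59.4 and 659 ± 30.8 CPM (SD, n = 3 each). The log2 fold change was 0.17 ± 0.063 (SE) with a 95% interval of 1.02-fold to 1.24-fold, an unadjusted edgeR p of 0.0223 and an adjusted p of 0.330. Without P VITRO replicate 2 the log2 fold change was 0.25 and the adjusted p was 0.0298 in edgeR, where 64 of 14288 genes were called. Whether Hbegf passed the threshold in the filtered edgeR fit thus depended on that sample. Hbegf also passed the threshold in edgeR when no filter on low counts was applied (adjusted p = 0.00228), where 400 of 25274 genes were called. Over all alternatives its adjusted p ran from 0.00228 to 0.657.

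**Figure D4:**
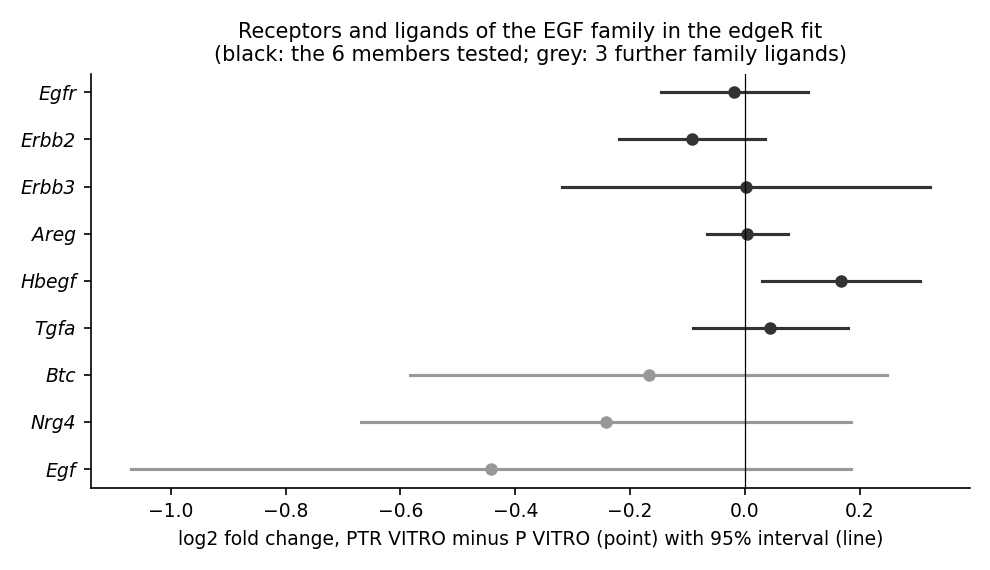
Log2 fold change of PTR VITRO over P VITRO (points) with 95% intervals (lines) from the edgeR fit for the 6 tested members (black) and Btc, Nrg4 and Egf (grey). Among the members only the interval of Hbegf, from 0.029 to 0.305, excludes 0, before adjustment over all genes.

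The remaining EGF family genes were mostly silent. Erbb4, the fourth receptor, and the neuregulins Nrg2 and Nrg3 had 0 counts in every sample, and Nrg1, a main ligand of ERBB3, had 1 count in 1 PTR VITRO sample. Btc was at 3.12, 3.04 and 3.02 CPM in P VITRO and at 2.65, 2.15 and 3.54 CPM in PTR VITRO, with a log2 fold change of -0.17 ± 0.19 (SE, adjusted p = 0.784 in edgeR). Nrg4 was at 1.81 ± 0.14 CPM in P VITRO and at 1.54 ± 0.17 CPM in PTR VITRO (SD, n = 3 each), with a log2 fold change of -0.24 ± 0.19 (SE, adjusted p = 0.684 in edgeR). Egf itself was at 1.11 ± 0.23 and 0.804 ± 0.22 CPM (SD, n = 3 each), with a log2 fold change of -0.44 ± 0.28 (SE, adjusted p = 0.596 in edgeR). For all 3 the groups overlapped, where 17.6% of all genes had groups that did not. EdgeR and limma-voom called 0 of these 3, beside 0.246% and 0.218% of all genes. At an unadjusted edgeR p below 0.05 there were 0 of the 3, where 11.4% of all genes passed. DESeq2 gave an adjusted p to 1 of the 3 (Btc) and did not call it. The other 4 of the 7 genes in the list were not tested.

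For each tested member other than Erbb2, the gene most like it was the one whose log2 CPM, centred on its own mean, had the smallest root mean square difference to it over the 6 samples. These genes were Pak6 for Egfr (0.011), Ostn for Erbb3 (0.0376), Rin1 for Areg (0.00142), Adamts5 for Hbegf (0.0155) and Upf2 for Tgfa (0.0137). Rin1 was at 189, 197 and 191 CPM in P VITRO and at 197, 189 and 191 CPM in PTR VITRO, in the same order of samples as Areg apart from its closest values. Such likeness was common where a member varied little, since 2002 of 11803 genes lay within 0.05 of Areg and 820 lay within 0.05 of Egfr, while 67 lay that close to Hbegf and 1 to Erbb3.

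The wider pathway was read from 6 lists: other family genes, ligand shedding, adaptors and effectors, receptor attenuation, ERK feedback inhibitors and ERK response targets. Without the members they held 110 genes, of which 100 were tested and 1 was called, against the background of 0.246%. The median log2 fold change of the 100 was -0.015, beside -0.004 for all genes. At an unadjusted edgeR p below 0.05, 4 of the 100 were higher and 13 lower in PTR VITRO, where 5.26% of all genes were higher and 6.13% lower. In 21 of the 100 the groups did not overlap, beside 17.6% of all genes.

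The proteases and carriers that bring ligands to the surface and release them gave 11 tested genes of 13. EdgeR, DESeq2 and limma-voom called 0 of the 11, beside 0.246%, 0.946% and 0.218% of all genes. At an unadjusted edgeR p below 0.05, 1 was higher, beside 5.26% of all genes. In 2 of the 11 the groups did not overlap, beside 17.6% of all genes. Adam17, the main sheddase of Areg, Hbegf and Tgfa, was at 120, 129 and 116 CPM in P VITRO and at 123.4, 130 and 129 CPM in PTR VITRO. Its log2 fold change was 0.07 ± 0.045 (SE, adjusted p = 0.620 in edgeR). Adam10, which sheds other family ligands, was at 133 to 144 CPM over all samples. The rhomboid pseudoproteases Rhbdf1 and Rhbdf2, which carry ADAM17 to the surface, were at 71.1 to 76.4 CPM and at 99.8 to 110 CPM. These 4 genes were chosen for their role, and each had groups that overlapped. The gene of smallest p was Adam8 (54.9 ± 3.91 against 62.0 ± 2.65 CPM, SD, n = 3 each, log2 fold change 0.17 ± 0.057 SE, adjusted p = 0.274 in edgeR), followed by Tmed10 with a log2 fold change of 0.05 (adjusted p = 0.568 in edgeR).

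None of the 30 adaptors and effectors passed the adjusted threshold in edgeR or limma-voom, beside 0.246% and 0.218% of all genes. In DESeq2 1 of the 29 with an adjusted p did, beside 0.946% of all genes there. Of the 30, 4 were lower at an unadjusted edgeR p below 0.05, beside 6.13% of all genes. In 8 of the 30 the groups did not overlap, beside 17.6% of all genes. Pik3r1, which encodes the regulatory p85α subunit of PI3K, was at 64.4, 62.6 and 61.5 CPM in P VITRO and at 54.5, 52.9 and 48.9 CPM in PTR VITRO. Its groups did not overlap, and the log2 fold change of -0.27 ± 0.048 (SE) had an adjusted p of 0.0533 in edgeR, just outside the threshold. In DESeq2 its adjusted p was 0.00754, and over all alternatives it ran from 2.54e-04 to 0.270. Stat3 was at 77.1 ± 2.93 CPM in P VITRO and at 69.7 ± 2.78 CPM in PTR VITRO (SD, n = 3 each, log2 fold change -0.14, adjusted p = 0.262 in edgeR). Of the 18 tested genes that attenuate the receptors, edgeR, DESeq2 and limma-voom called 0, beside 0.246%, 0.946% and 0.218% of all genes. At an unadjusted edgeR p below 0.05, 1 was higher and 2 were lower, beside 5.26% and 6.13% of all genes. Errfi1, which encodes the EGFR inhibitor MIG6, was at 407 ± 16.1 and 372 ± 12.2 CPM (SD, n = 3 each, log2 fold change -0.13, adjusted p = 0.243 in edgeR), and the phosphatase gene Ptpn2 was at 118 ± 2.75 and 129 ± 3.52 CPM (SD, n = 3 each, log2 fold change 0.13, adjusted p = 0.238 in edgeR). For both genes the groups did not overlap, with Errfi1 lower and Ptpn2 higher in the PTR VITRO samples. In 4 of the 18 tested genes of this list the groups did not overlap, beside 17.6% of all genes.

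The single call of the pathway lists was among the 12 ERK feedback inhibitors. Of these DESeq2 called 3, beside 0.946% of all genes, and limma-voom 0, beside 0.218%. At an unadjusted edgeR p below 0.05, 2 of the 12 were higher and 3 lower, beside 5.26% and 6.13% of all genes, and in 4 of the 12 the groups did not overlap, beside 17.6% of all genes. Spry4, a Sprouty protein that restrains RAS-ERK signalling downstream of receptor tyrosine kinases, rose from 62.4, 64.8 and 65.4 CPM in P VITRO to 82.0, 76.2 and 74.5 CPM in PTR VITRO. Its log2 fold change was 0.28 ± 0.046 (SE, adjusted p = 0.0454 in edgeR), or 1 gene of the list higher against a background of 0.0985%. The adjusted p was 0.05002 with limma-voom. It ran from 0.0495 to 0.192 when single samples were left out, and stayed under the threshold only without P VITRO replicate 2. Over all alternatives it ran from 4.62e-05 to 0.192. Dusp5, an ERK phosphatase, was at 242, 232 and 245 CPM in P VITRO and at 213, 196 and 202 CPM in PTR VITRO. The log2 fold change of Dusp5 was -0.23 ± 0.040 (SE, adjusted p = 0.0515 in edgeR and 4.07e-04 in DESeq2, with 6.20e-05 to 0.305 over all alternatives). Spry2, chosen after its values were seen, was at 47.4, 45.0 and 43.0 CPM in P VITRO and at 35.1, 36.9 and 38.3 CPM in PTR VITRO, with a log2 fold change of -0.30 ± 0.053 (SE, adjusted p = 0.0515 in edgeR). The PTR VITRO samples were thus all above the P VITRO samples for Spry4 and all below them for Dusp5 and Spry2. The 2 others past the unadjusted threshold were Spred3 (log2 fold change 0.19, adjusted p = 0.398 in edgeR), without overlap, and Spry1 (log2 fold change -0.28, adjusted p = 0.313 in edgeR), with overlap. Both are inhibitors of the same pathway and were named after their values were seen. Dusp6, an ERK phosphatase that ERK itself induces and that was chosen for its role, was at 166 ± 11.0 CPM in P VITRO and at 166 ± 9.50 CPM in PTR VITRO (SD, n = 3 each, adjusted p = 0.993 in edgeR).

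Among 26 tested ERK response targets edgeR and limma-voom called 0, beside 0.246% and 0.218% of all genes. DESeq2 called 1 of the 24 to which it gave an adjusted p, beside 0.946% of all genes. Of the 26, 4 were lower at an unadjusted edgeR p below 0.05 while none was higher, beside 6.13% and 5.26% of all genes. Ier2, an immediate early gene, was at 261, 222 and 245 CPM in P VITRO and at 205, 186 and 179 CPM in PTR VITRO, with a log2 fold change of -0.35 ± 0.064 (SE, adjusted p = 0.0543 in edgeR). Its adjusted p was 1.40e-05 in DESeq2 and ran from 8.33e-12 to 0.310 over all alternatives. Fosb, a subunit of AP-1, was at 25.26, 22 and 23.53 CPM in P VITRO and at 20.3, 18.7 and 15.9 CPM in PTR VITRO, with a log2 fold change of -0.35 ± 0.088 (SE, adjusted p = 0.170 in edgeR). All PTR VITRO samples were below all P VITRO samples for both genes. In 3 of the 26 tested targets the groups did not overlap, beside 17.6% of all genes. The median log2 fold change of the list was 0.009, so its members lay on either side of 0.

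**Figure D5:**
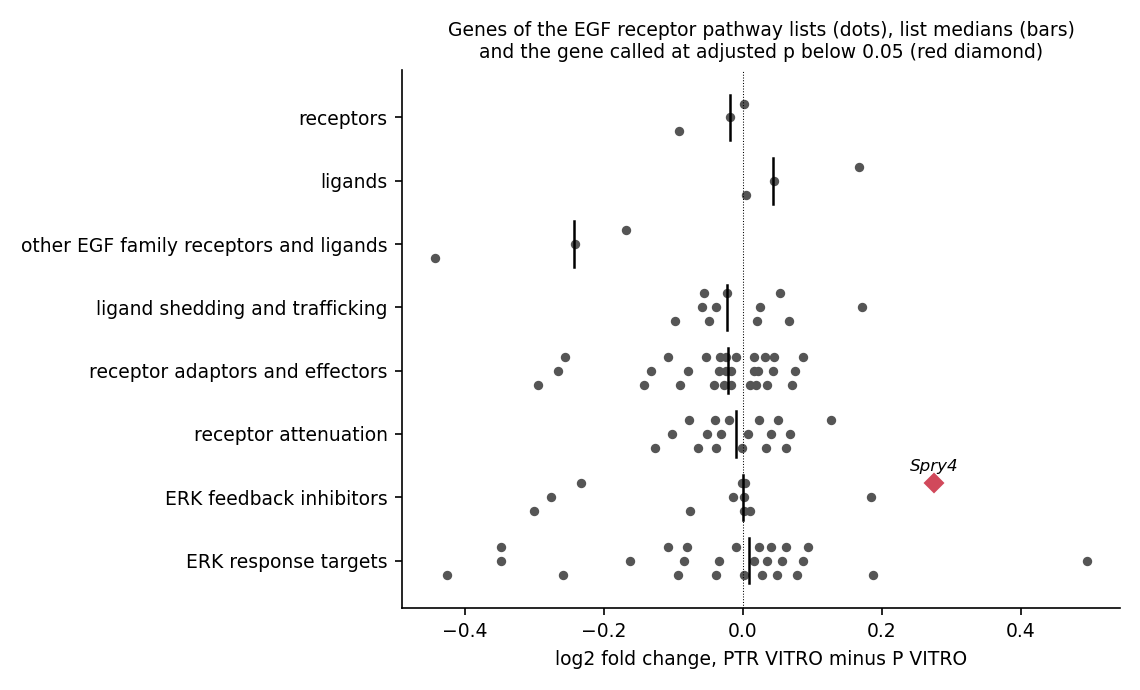
Log2 fold change of PTR VITRO over P VITRO for the tested genes of each list (dots), with the list median (black bar) and the called gene as a red diamond. Spry4, at 0.28, is the called gene, and the list medians lie between -0.242 for the other family genes and 0.044 for the ligands.

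The total count was 17757341 to 32426739 per sample, and the common biological coefficient of variation was 5%. The number of genes called by edgeR depended on single samples: 35 became 64 without P VITRO replicate 2, 46 without PTR VITRO replicate 1 and 8 to 12 without any 1 of the others. The carcinoma label was checked against markers. The epithelial keratin Krt8 was at 1031 to 1128 CPM over all samples, and Krt18 was at 480 to 506 CPM in P VITRO and at 523 to 568 CPM in PTR VITRO, without overlap (adjusted p = 0.139 in edgeR, log2 fold change 0.17). Epcam was at 1.24 to 1.80 CPM in P VITRO and at 2.15 to 2.41 CPM in PTR VITRO, also without overlap (adjusted p = 0.392 in edgeR, log2 fold change 0.48), while Cdh1, which defines epithelial adhesion, had at most 1 count in a sample. Of 6 tested epithelial markers 2 were higher and 1 (Krt14) was lower at an unadjusted edgeR p below 0.05, beside 5.26% and 6.13% of all genes. In 3 of the 6 the groups did not overlap, beside 17.6% of all genes. Of the 6 tested epithelial markers, edgeR and limma-voom called 0, beside 0.246% and 0.218% of all genes. DESeq2 called 1 of the 4 to which it gave an adjusted p, beside 0.946% of all genes. The summed epithelial level was 1542 to 1665 CPM in P VITRO and 1628 to 1708 CPM in PTR VITRO, with ranges that overlapped. Of 6 mesenchymal markers 5 were above 10 counts in every sample, and their summed level was 11790 to 12540 CPM in P VITRO and 10790 to 11130 CPM in PTR VITRO. That sum was lower in every PTR VITRO sample, and 4 of the 5 tested markers were lower at an unadjusted edgeR p below 0.05, beside 6.13% of all genes. Of the 5 tested mesenchymal markers, edgeR and limma-voom called 0, beside 0.246% and 0.218% of all genes, and DESeq2 called 1, beside 0.946%. The part of these marker differences in the results above was not tested. Leukocyte markers summed to at most 0.776 CPM with Ptprc, Cd3d and Adgre1 at 0, endothelial markers to at most 0.300 CPM, and adipocyte markers to at most 0.0561 CPM with Lep and Plin1 at 0.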

How the data were processed

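Polyadenylated RNA from 6 EMT6 samples (3 P VITRO, 3 PTR VITRO) was prepared with a stranded TruSeq mRNA kit. Per the labels and the methods of the study, the authors checked reads with FastQC 0.11.5, aligned them with STAR 2.6.0a to GRCm38 and deposited gene-level estimated counts (expected counts of RSEM 1.3.1), not scaled between samples. The strand setting of RSEM is not given in the sources used here. RSEM shares reads of similar transcripts by likelihood, so counts need not be whole. Every sample column was matched to a label.

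Estimated counts were rounded and filtered with filterByExpr (minimum count 10, minimum total 15), which left 14217 of 53465 genes. Samples were scaled by the upper quartile and compared in edgeR 4.0.16 (R 4.3.3) by its quasi-likelihood F test, with no covariate beside group. Benjamini-Hochberg adjustment covered the whole set of tested genes, and a gene was called at an adjusted p below 0.05. Standard errors came from the F statistic. DESeq2 1.42.0 and limma-voom (limma 3.58.1) were alternatives. The fits were tested on simulated data. Total counts of 17757341 to 32426739 make a floor of 3 counts equal to 0.168 to 0.0925 CPM, and floors cover counting error only. Exon lengths and positions came from GENCODE M21. Symbols came from a separate list of gene names, and 53274 genes had a symbol. Transcript copies were searched with blastn 2.17.0 at 95% identity over 75 bases, and none with reads of note was found.

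The members and the gene lists were chosen with earlier results of these data known. Genes were named by a fixed rule: all members, the other family genes, in each list every called gene and the 2 of smallest p, the closest gene of each member (mean count of at least 50, pseudocount 0.5), and cell type markers. Adam10, Adam17, Rhbdf1, Rhbdf2, Dusp6, Spry1, Spry2, Spred3, Fosl1 and Plaur were named outside it. The closest gene of Erbb2 is not reported here.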

Additional observations from a re-analysis of the deposited data

How the results depend on the processing

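Under other scalings, tests and filters, 39 of 42 log2 fold changes of the tested members kept both their sign and their side of 0.05. With no filter on low counts 1 member was called (Hbegf, 0.17), beside 400 of 25274 genes. With at least 10 counts required in every sample, Erbb3 (-0.002) and Areg (-0.0013) turned sign around 0. When single samples were left out, 28 of 36 kept both. Log2 fold changes then ran from -0.0612 to 0.026 for Egfr, from -0.1427 to 0.1026 for Erbb3, from -0.0132 to 0.0242 for Areg, from 0.1151 to 0.2534 for Hbegf and from -0.0056 to 0.0913 for Tgfa, and 0 to 1 members were called. The 1 was Hbegf, without P VITRO replicate 2, where 64 of 14288 genes were called.

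The number of pathway genes called, 1 in the fit above, was 3 with TMM factors, 5 with DESeq2, 0 with limma-voom, 9 with no filter on low counts, 5 when every sample needed 10 counts, and 0 to 3 when single samples were left out. Over all genes, 35 of 14217 were called in the fit above. In the order of those settings this became 42 of 14217, 111 of 11735 (0.946%) and 31 of 14217 (0.218%). It was 400 of 25274 with no filter and 54 of 13206 when every sample needed 10 counts. Without single samples it was 8 to 64, of 14273 to 14561 genes tested. Spry4 was 0.28 on the log2 scale with limma-voom (adjusted p = 0.05002), and 0.27 with a replicate block (adjusted p = 0.0544). The cause was not tested.

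The labels number the replicates alike in both groups. Samples of the same number had deviations from the group means that correlated across genes at 0.183, 0.0931 and -0.0427, so the numbers were not taken as pairs. With a replicate block in edgeR, 68 of 14217 genes were called over all and 3 in the pathway lists. None of them was a member, with Hbegf at 0.17 (adjusted p = 0.199). The 3 were Pik3r1 (adjusted p = 0.0353), Dusp5 (0.0273) and Ier2 (0.0141), while Spry4 was no longer called.

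With the longest annotated transcript as the length, Areg held 78.1% and Hbegf 21.3% of the summed ligand level. Erbb3, with 92 to 184 counts, and Epgn and Ereg, with at most 4, are the members most limited by depth.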

Other observations

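Within P VITRO, replicate 2 was the highest of the 3 samples for 4 of the 6 tested members (Egfr, Areg, Hbegf and Tgfa) and the lowest for Erbb3. Among the 26 tested ERK response targets the same sample was the highest of the 3 for 14 and the lowest for 11. The same counts over all tested genes are not given here. These counts therefore cannot be told apart from a trait of the whole sample. The 2 targets given next were picked after their values were seen, and P VITRO replicate 2 is the highest of its group in both. Fosl1, an AP-1 subunit, was at 502, 601 and 472 CPM in P VITRO and at 537, 564 and 579 CPM in PTR VITRO. Plaur, the urokinase receptor gene, was at 299, 355 and 307 CPM in P VITRO and at 320, 338 and 364 CPM in PTR VITRO. P VITRO replicate 2 also had the highest total count of its group, 30115549.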
